A study of Homo sapiens with 42 samples.

Results

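The genes described here are 382 tandem genes of low level that lie just behind a highly expressed gene, out of 58243 genes counted in K562 nuclear RNA. They were selected on their measured mean level over the 15 nuclear libraries, which had to be 0.3 to under 10 CPM (a gene's count over its library total, multiplied by 1000000), and on position. The span of a member overlapped no other gene on either strand, and its start lay 1 to 5000 bases past the end of a gene of 10 CPM or more on its own strand, called its upstream gene here. There were 9309 genes at 10 CPM or more, and 3350 non-overlapping genes in the low range from which the 382 came. Of these 382, 171 were protein-coding genes, 94 lncRNA genes, 60 pseudogenes, 12 small RNA genes, 31 of other types and 14 mitochondrial tRNA genes, and 126 had no symbol.

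K562 is a chronic myeloid leukaemia line that carries the BCR-ABL1 fusion kinase. The study compared untreated cells (CTRL) with cells given the kinase inhibitor imatinib (IM) at 1 µM, the CPSF73 inhibitor JTE-607 (JTE) at 5 µM, or hyperosmotic stress with KCl at 110 mM, with 3 biological replicates a group. Nuclear RNA depleted of rRNA was sequenced for CTRL, IM 1h, IM 18h, JTE 1h and KCl 1h (15 libraries), and poly(A) mRNA for CTRL, IM 1h, 6h and 18h, JTE 1h, 6h and 18h, and KCl 1h and 3h (27 libraries). All groups are 1 cell line in culture, so nothing here separates the treatments from that line's own background.

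A gene's transcript ends by cleavage at the polyadenylation site, where the complex that reads the AATAAA hexamer cuts the RNA through the endonuclease CPSF73. The polymerase goes on past the site until the exonuclease XRN2 and termination factors release it. When cleavage or release fails, the polymerase runs on into the DNA behind the gene, and RNA of a second gene that lies there on the same strand can be part of the run-on transcript. A silent or weak gene behind a strong one is therefore a place where exon counts can come from its own promoter or from the gene before it.

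The ends of upstream genes are shown because they hold the hexamer at which cleavage is directed. Of 9289 genes at 10 CPM or more, 72.4% had AATAAA or ATTAAA on the sense strand in their last 40 bases, against 74.2% of the 361 upstream genes of nuclear-genome members. The share was 79.2% of 178 upstream genes whose member was called higher after JTE 1h and 68.8% of 186 upstream genes with a member that was not, 3 upstream genes being in both sets, a description with no test. Members that entered only through their treated libraries are in the called set, and the part of the choice in this difference was not tested. For 6 members whose values follow, a stretch of 30 bases at or within a few bases of the upstream gene's end is given on that gene's strand in hg38, with the hexamer in capitals.
SRP72, chr4:56503646-56503675 (plus), before ARL9: cattttaaAATAAAatattttagcagtgaa
CABIN1, chr22:24178599-24178628 (plus), before SUSD2: ggttgcttttctAATAAAgatggaacagtt
SCLY, chr2:238099384-238099413 (plus), before ESPNL: aattaacgAATAAAagatttcagtgcccga
ABCF2, chr7:151207837-151207866 (minus), before IQCA1L: gggcctgacaaaAATAAAgggtgaactgtt
MRPL18, chr6:159798397-159798426 (plus), before PNLDC1: aattacaaAATAAAggcatattatgaactc
VPS39, chr15:42158702-42158731 (minus), before PLA2G4F: ataaacctAATAAAgcaagaaaccaagcct

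The whole stretch between the genes is shown for 6 close pairs, chosen after their values were seen so that members that rose after JTE 1h (RSPH6A, ABTB1, VWA7, FES) stand beside members that did not pass the test (TMC4, TRIM3). Capitals mark CG dinucleotides, and each stretch runs from the end of the first gene to the start of the second on their strand.
SYMPK to RSPH6A, chr19:45815320-45815409 (minus), 15 CG: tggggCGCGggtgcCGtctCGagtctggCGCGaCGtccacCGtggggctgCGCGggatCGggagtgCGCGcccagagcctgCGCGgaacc
PODXL2 to ABTB1, chr3:127672810-127672934 (plus), 16 CG: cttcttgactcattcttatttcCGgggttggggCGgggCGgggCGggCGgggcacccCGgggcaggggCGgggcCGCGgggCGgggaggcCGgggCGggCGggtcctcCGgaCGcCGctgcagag
VARS1 to VWA7, chr6:31777295-31777517 (minus), 5 CG: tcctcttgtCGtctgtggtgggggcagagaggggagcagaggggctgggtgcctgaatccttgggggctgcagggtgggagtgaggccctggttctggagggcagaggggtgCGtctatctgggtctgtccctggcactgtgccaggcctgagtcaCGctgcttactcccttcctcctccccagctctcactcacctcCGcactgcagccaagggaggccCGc
FURIN to FES, chr15:90883459-90883694 (plus), 4 CG: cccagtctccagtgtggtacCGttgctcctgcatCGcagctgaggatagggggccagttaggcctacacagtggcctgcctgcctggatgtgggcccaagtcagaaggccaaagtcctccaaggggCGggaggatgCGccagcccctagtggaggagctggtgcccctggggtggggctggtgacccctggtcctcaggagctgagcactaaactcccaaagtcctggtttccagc
MBOAT7 to TMC4, chr19:54173251-54173411 (minus), 8 CG: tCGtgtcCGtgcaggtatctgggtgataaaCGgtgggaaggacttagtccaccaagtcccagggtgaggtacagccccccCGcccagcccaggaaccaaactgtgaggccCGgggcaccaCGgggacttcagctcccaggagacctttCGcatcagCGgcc
ARFIP2 to TRIM3, chr11:6474460-6474682 (minus), 4 CG: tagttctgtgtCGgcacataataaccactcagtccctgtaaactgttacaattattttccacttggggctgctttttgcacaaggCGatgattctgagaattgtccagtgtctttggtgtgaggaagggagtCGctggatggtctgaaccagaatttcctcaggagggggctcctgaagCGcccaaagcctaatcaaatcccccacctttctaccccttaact

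RefSeq promoters of GRCh38.p14 (300 bases) matched 140 members, and they held a median of 12 CG dinucleotides, against 14 in all 27305 promoters of the table and 27 in 302 upstream genes. The median was 9 in the 72 members called higher after JTE 1h and 21 in the 68 that were not, with no test made. This called set also holds members that entered only through their treated libraries, so the choice of members itself can shape the split. The promoters of EPHX3, which was higher in every JTE 1h library than in CTRL, and of CDK5R1, whose JTE 1h and CTRL libraries overlapped, are given with CG in capitals. Both are placed by RefSeq and begin past the start of the gene span counted here, so they do not lie in the gap to the upstream gene.
EPHX3 promoter, chr19:15232919-15233218 (minus), 14 CG: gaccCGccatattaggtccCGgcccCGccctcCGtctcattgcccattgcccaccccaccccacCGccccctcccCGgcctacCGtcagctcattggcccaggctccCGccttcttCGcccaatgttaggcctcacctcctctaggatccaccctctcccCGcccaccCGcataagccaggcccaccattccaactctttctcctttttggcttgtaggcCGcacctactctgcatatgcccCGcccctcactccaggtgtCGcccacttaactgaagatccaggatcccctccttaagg
CDK5R1 promoter, chr17:32486743-32487042 (plus), 57 CG: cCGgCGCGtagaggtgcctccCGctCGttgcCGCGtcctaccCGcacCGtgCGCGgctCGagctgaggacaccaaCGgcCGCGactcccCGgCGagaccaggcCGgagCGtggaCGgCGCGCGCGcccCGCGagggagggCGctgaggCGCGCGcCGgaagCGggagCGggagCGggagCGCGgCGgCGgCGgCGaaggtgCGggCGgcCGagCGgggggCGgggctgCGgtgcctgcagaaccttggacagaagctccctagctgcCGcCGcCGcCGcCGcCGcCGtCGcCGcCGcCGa

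The 368 members of the nuclear genome lay on 23 chromosomes, with 38 on chromosome 1 and 33 on chromosome 19. Their distance from the upstream gene ran from 25 to 4968 bases with a median of 2156.5, and 331 of the 382 had no other gene between. They shared 361 distinct upstream genes, 7 of which had 2 or more members, so those members are not independent of each other. The mean nuclear level had a median of 1.27 CPM in members and 62.8 CPM in upstream genes, and the upstream gene was 49.7 times higher at the median pair. Because levels were averaged over all 15 libraries, a member could enter through its treated libraries alone: 90 members had a CTRL mean under 0.3 CPM and 292 had one of at least 0.3 CPM, 279 of them in the nuclear genome. For the 90, a rise in some treated group is fixed by the rule, so their nuclear values are given as a description, with no test. At the upper limit, CDK5R1 had a CTRL mean of 10.4 CPM and entered through lower treated libraries. A fall of CDK5R1 in some treated group is thus fixed in the same way.

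Values at the edges of the rule are given as a description. Median log2 fold changes against CTRL for JTE 1h and KCl 1h were 1.64 and 2.42 in the 16 members at 0.3 to under 0.35 CPM, against 2.07 and 4.08 in 23 genes just under that limit at 0.25 to under 0.3 CPM. In the 7 members at 9 to under 10 CPM they were −0.08 and −0.07, and in the 4 genes just above, at 10 to under 11 CPM, −0.16 and −0.01. In the last 500 bases inside the distance limit they were 0.73 and 1.15 (20 members), and in the first 500 bases outside it 0.98 and 1.04 (25 genes).

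Nuclear libraries held 16175394 to 25103205 counts and mRNA libraries 16439848 to 22505595, apart from replicates 2 and 3 of mRNA KCl 1h with 62953314 and 42474454. Erythroid and leukaemic K562 genes were present in CTRL nuclear RNA (HBG2 at 1594 CPM, GATA1 at 221 CPM). The B cell gene MS4A1 was at 0 CPM and the hepatocyte gene ALB at 0.0316 CPM, while the epithelial genes EPCAM and KRT8 were at 72.2 and 226 CPM. The nuclear-retained RNA MALAT1 was at 13150 CPM in nuclear and 2660 CPM in mRNA libraries.

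The first comparison asked what an inhibitor of the cleavage enzyme did to these genes within 1 hour. After JTE 1h, 126 of the 279 nuclear-genome members with a CTRL mean of at least 0.3 CPM rose and 1 fell in nuclear RNA (edgeR quasi-likelihood test, Benjamini-Hochberg adjusted p under 0.05 and log2 fold change beyond 0.6), where 7.0% of all 21929 genes tested rose and 1.51% fell. Their median log2 fold change was 0.78, with quartiles of 0.24 and 1.40, and that over all genes was −0.01. With the members that could enter only through treated libraries included, 181 of the 367 nuclear-genome members that passed the filter on low counts were called higher and 1 lower, with a median of 1.04, counts that the rule itself raises. The 14 mitochondrial tRNA genes, whose RNAs are cut from long shared transcripts and which include the 5 members closest to their upstream gene (MT-TV, MT-TL1, MT-TW, MT-TG and MT-TR), had none called by edgeR and 1 at an unadjusted p under 0.05.

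The upstream genes moved little. Of 373 upstream genes, 1 rose and 4 fell after JTE 1h, their median log2 fold change was −0.06, and 361 of 367 members had an upstream gene within 0.6 of 0. The ratio of member to upstream gene rose in 143 of the 279 members and fell in 1 (limma on log2 ratios, adjusted over 3665 pairs, where 22.0% rose and 1.45% fell), with a median of 0.86. Over all 367 it was called higher in 204. In bulk RNA, a change in a few cells and a change in all of them cannot be told apart.

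**Figure D1:**
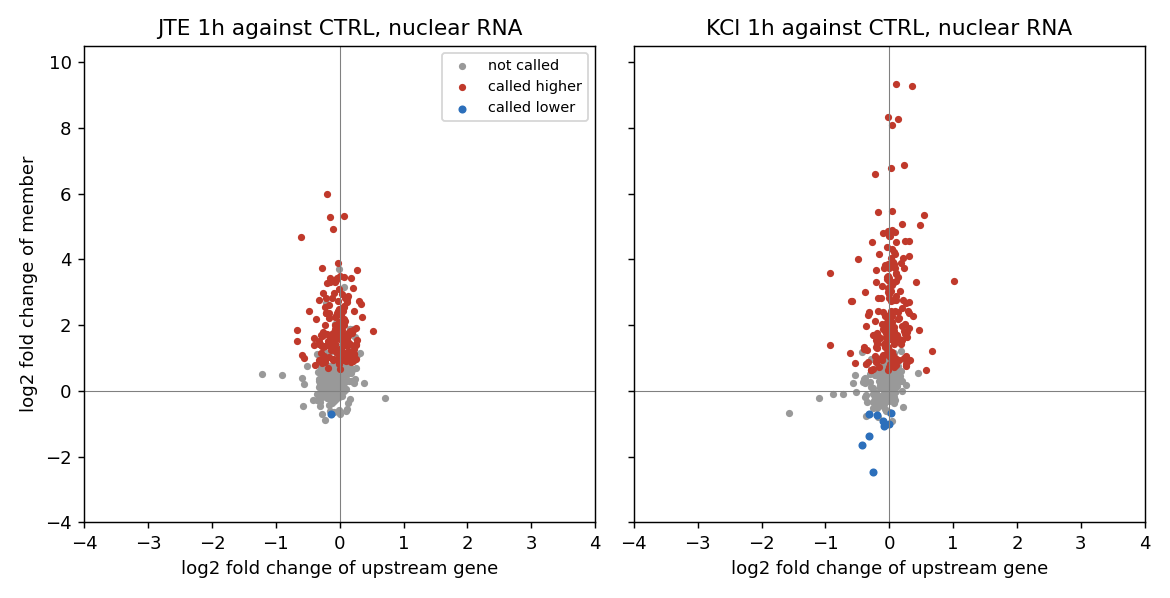
Each point is 1 of 367 members, with the log2 fold change of its upstream gene on the x axis and its own on the y axis, for JTE 1h (left) and KCl 1h (right) against CTRL in nuclear RNA. Points stand in a narrow vertical band about x = 0, with 181 members called higher and 1 lower on the left, and 202 higher and 9 lower on the right, members with a CTRL mean under 0.3 CPM included.

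EPHX3, a member of the epoxide hydrolase family, lay at chr19:15226919-15233435 (minus strand). Its nuclear level was 0.133, 0.0898 and 0.0505 CPM in CTRL, 1.98, 0.863 and 1.55 CPM in JTE 1h, and 0.987, 1.47 and 1.80 CPM in KCl 1h. Every treated library was above every CTRL library, and the log2 fold change for JTE 1h was 3.91. Like the other members with the largest JTE differences, apart from CA15P1, it had a CTRL mean under 0.3 CPM, so that no test is given.

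LINC00304, a lncRNA 3300 bases behind ACSF3, had 0.0443, 0.0449 and 0.253 CPM in CTRL and 1.31, 1.01 and 2.23 CPM in JTE 1h, a log2 fold change of 3.74. SUSD2, which encodes a membrane protein and lay 2631 bases behind CABIN1, had 0.0885, 0.180 and 0.101 CPM in CTRL and 1.18, 1.20 and 1.79 CPM in JTE 1h, a log2 fold change of 3.44. The CTRL and JTE 1h libraries of both genes did not overlap. The pseudogenes TUBAP11 behind AQR and CA15P1 behind DGCR2 had log2 fold changes of 3.43 and 3.29, and reads of a pseudogene can be shared with near-identical copies.

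RNF225, a single-exon RING finger gene, had 0.0885, 0.0449 and 0.606 CPM in CTRL, 2.19, 2.21 and 2.71 CPM in JTE 1h, and 0.571, 0.460 and 1.17 CPM in KCl 1h. Its log2 fold change was 3.31 for JTE 1h, with no overlap. The KCl libraries overlapped CTRL, with a log2 fold change of 1.63, and every KCl 1h library was below every JTE 1h library.

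The closest pairs did not all move. RSPH6A, a radial spoke gene that starts 91 bases behind SYMPK (itself a scaffold protein of the cleavage complex), had 0.310, 0.404 and 0.303 CPM in CTRL and 0.970, 0.575 and 1.83 CPM in JTE 1h, a log2 fold change of 1.73 ± 0.41 (edgeR adjusted p = 0.0092). VWA7, 224 bases behind VARS1, had 1.86, 1.71 and 2.88 CPM in CTRL and 6.58, 5.99 and 7.17 CPM in JTE 1h, and rose by 1.62 ± 0.20 on the log2 scale (edgeR adjusted p = 2.366e-05). In both genes every JTE 1h library was above every CTRL library. ABTB1, 126 bases behind PODXL2, rose by 1.66 ± 0.37 (edgeR adjusted p = 0.005256). The tyrosine kinase gene FES, 237 bases behind FURIN, rose by 1.36 ± 0.27 (edgeR adjusted p = 0.002041). TMC4, 162 bases behind MBOAT7, had a log2 fold change of −0.45 (adjusted p = 0.1588), and the ubiquitin ligase gene TRIM3, 224 bases behind ARFIP2, had 0.23 (adjusted p = 0.4964). Their gaps, printed above, held 8 and 4 CG, and those of the 4 that rose 15, 16, 5 and 4. Among close pairs not printed, the gap of UFSP1, not called higher, held 26 CG, and that of LINC01391, called higher, held 7. A link between CG in the gap and a rise was not tested.

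The members of highest level were not called after JTE 1h. Their means lay just under the upper limit of 10 CPM, so like genes that rose could have been left out by the rule. The part of the choice in this was not tested. CDK5R1, which encodes the activator of CDK5, had 9.83, 10.46 and 11.1 CPM in CTRL and 9.28, 8.295 and 10.48 CPM in JTE 1h, 3301 bases behind the proteasome gene PSMD11. Its log2 fold change was −0.16, a description with no test, since its CTRL mean was above the limit. The others of the 5 highest were ING4, a chromatin reader (0.17), the transcription factor gene ZBTB6 (−0.11), the metalloproteinase gene ADAM8 (0.31) and PNMT, which makes adrenaline (−0.08), with adjusted p from 0.3261 to 0.7977. The single member that fell had no symbol and a log2 fold change of −0.69 (adjusted p = 0.02188).

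**Figure D2:**
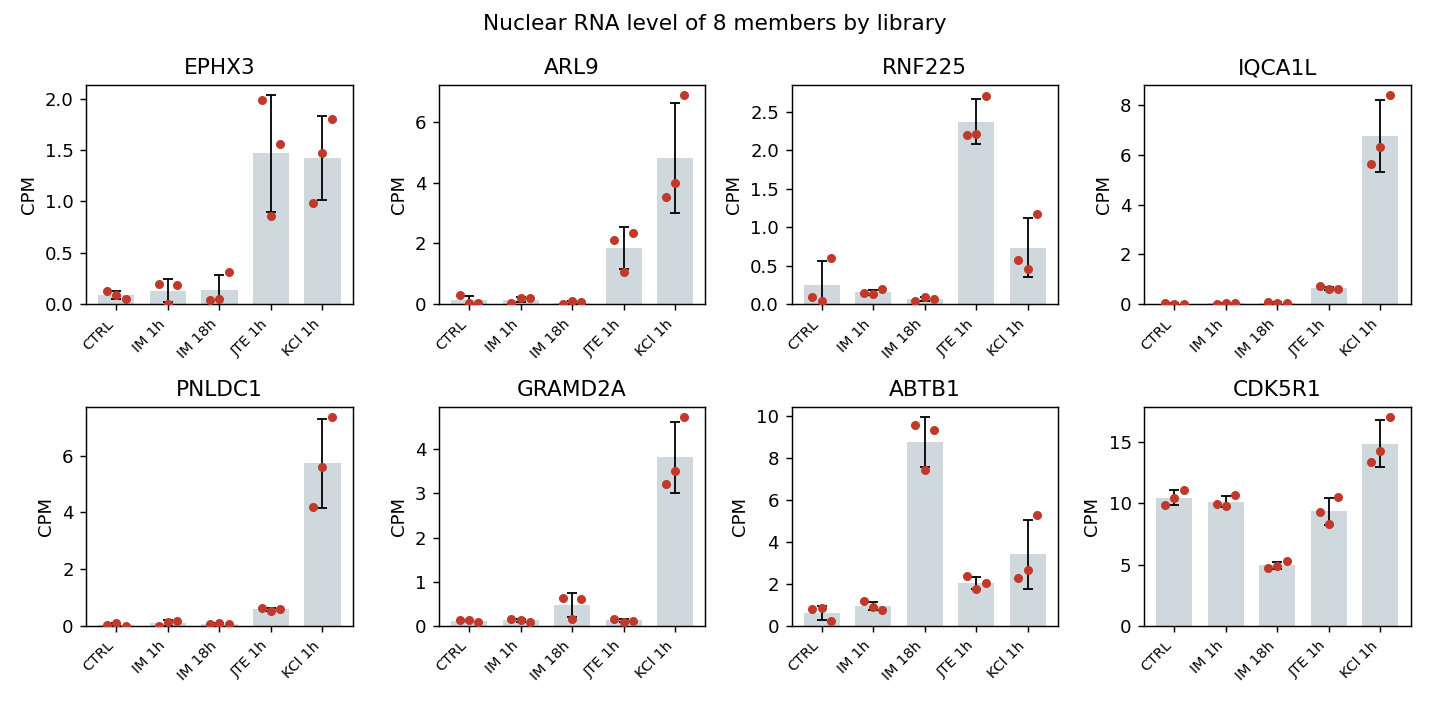
Nuclear level in CPM of 8 members by group, with points for the 3 libraries, bars for their mean and error bars for 1 SD, each panel with its own axis from 0. EPHX3, ARL9 and RNF225 are higher in JTE 1h than in CTRL, IQCA1L, PNLDC1 and GRAMD2A are highest in KCl 1h, ABTB1 in IM 18h, and the CDK5R1 libraries of JTE 1h and CTRL overlap.

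By type, 86 of 171 protein-coding members, 42 of 94 lncRNA members, 31 of 60 pseudogenes, 2 of 11 small RNA genes tested and 20 of 31 genes of other types were called higher after JTE 1h, members that entered through treated libraries included. Members with several exons (110 of 226) and with 1 exon (71 of 155) had like shares, the 155 including 14 mitochondrial tRNA genes, of which 0 were called. By the CTRL level of the upstream gene, 71 of 123 members were called higher behind genes of 109 CPM or more, 60 of 122 behind genes from 42.8 CPM, and 50 of 122 behind lower ones. Across the 367 members, Spearman's rho of the log2 fold change was 0.18 with the upstream gene's CTRL level, 0.05 with distance and 0.08 with exon length. These are descriptions: the members share the same libraries, and reads of a member and its upstream gene share depth.

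The same rule without its distance limit gave genes farther behind a high gene. After JTE 1h the share called higher was 47.1% of 34 genes up to 500 bases, 53.9% of 102 from beyond 3000 to 5000 bases, 35.6% of 188 from there to 10000 bases, 19.4% of 620 from there to 50000 bases and 12.3% of 2066 farther away. The far genes (beyond 10000 to 50000 bases, 624 in all) had a median log2 fold change of 0.23, and 1841 genes with no highly expressed gene within 10000 bases had 0.07. After KCl 1h the shares in the 3 outer classes were 54.3%, 46.9% and 23.7%. Each class holds genes that could enter through treated libraries alone, and no test was made between classes.

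**Figure D3:**
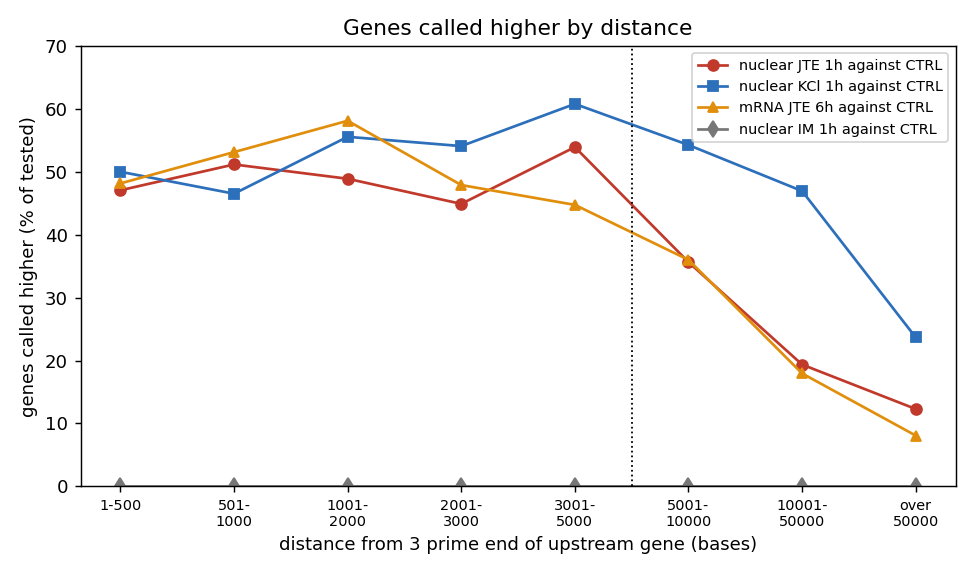
Share of tested genes called higher (%) by distance from the upstream gene, in bins labelled in bases, for nuclear JTE 1h, KCl 1h and IM 1h and for mRNA JTE 6h, each against CTRL. The dotted line marks 5000 bases, left of which the members lie, and JTE 1h and JTE 6h fall to 12.3% and 8.07% in the farthest bin while IM 1h is at 0 in every bin.

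Hyperosmotic stress with KCl was compared with CTRL in the same nuclear libraries. After KCl 1h, 121 of the 279 members with a CTRL mean of at least 0.3 CPM rose and 9 fell (edgeR), where 15.3% of all genes rose and 8.5% fell, with a median log2 fold change of 0.62. Over all 367 nuclear-genome members 202 were called higher and 9 lower, with a median of 0.97, and the rise of the others is fixed by how they were chosen. Upstream genes again moved little: 2 of 373 rose and 8 fell, and 357 of 367 members had one within 0.6 of 0. The ratio to the upstream gene rose in 132 and fell in 9 of the 279 (limma, with 41.9% and 5.46% of pairs as background), and over all 367 it was called higher in 215 and lower in 9.

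The members with the largest KCl differences were close to silence in CTRL, as the choice by mean level over all libraries allows, and their values are a description. IQCA1L, an AAA-type gene at chr7:151190873-151205496 (minus strand), 2341 bases behind ABCF2, had 0.0443, 0 and 0 CPM in CTRL, 0.717, 0.623 and 0.598 CPM in JTE 1h, and 5.61, 6.305 and 8.38 CPM in KCl 1h. With 1 count over the CTRL libraries, the ratio was 438 for KCl 1h (exact 95% interval 78.3 to 17360) and 41.8 for JTE 1h (7.12 to 1686). Such intervals cover counting error only, allow for neither the spread of replicates nor the choice of members, and are no test of a rise. PNLDC1, a nuclease that trims piRNAs, lay 1813 bases behind MRPL18 and had 0.0443, 0.0898 and 0 CPM in CTRL, 0.633, 0.527 and 0.598 CPM in JTE 1h, and 4.21, 5.62 and 7.36 CPM in KCl 1h. Its ratio was 124 (42.1 to 605) for KCl 1h and 12.7 (4.05 to 64.0) for JTE 1h. In both genes the 3 groups did not overlap, with KCl 1h highest.

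Other genes were higher after KCl 1h and had few or no counts after JTE 1h. PLA2G4F, a cytosolic phospholipase A2 gene 2065 bases behind VPS39, had 0 CPM in every CTRL library, 0.169, 0 and 0.0398 CPM in JTE 1h, and 2.81, 3.50 and 4.58 CPM in KCl 1h, at least 26.0-fold higher than the floor of 3 counts per library. GRAMD2A, which encodes a protein of contacts between membranes, lay 1244 bases behind the glycolytic gene PKM. It had 0.133, 0.135 and 0.101 CPM in CTRL, 0.169, 0.0959 and 0.1195 CPM in JTE 1h, and 3.22, 3.50 and 4.73 CPM in KCl 1h. GRAMD2A had a log2 fold change of 0.05 for JTE 1h and 4.89 for KCl 1h, and the JTE 1h libraries overlapped CTRL. PKM had −0.06 and 0.04.

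ADIG, the adipogenin gene 2334 bases behind RALGAPB, had 0 CPM in all CTRL libraries and 1.20, 1.34 and 2.88 CPM in KCl 1h, at least 12.9-fold. ARL9, an ARF-like GTPase gene 1529 bases behind SRP72, was higher in both, with 0.310, 0.0449 and 0.0505 CPM in CTRL, 2.11, 1.055 and 2.35 CPM in JTE 1h, and 3.53, 4.004 and 6.87 CPM in KCl 1h. Every KCl 1h library was above every JTE 1h library. HR, a transcriptional corepressor gene behind REEP4, had a KCl ratio to CTRL of 115 (31.5 to 957), an interval for counting error only and no test. The pseudogenes RPL7P19 behind EGR1 and NDUFB4P11 behind TNFAIP2 were at least 26.98-fold and 11.3-fold higher, with the same limit on shared reads. The pseudogene DSTNP3 behind TMEM70 was among the largest rises of the ratio to the upstream gene after JTE 1h. With 1 count in CTRL, its own level was 54.8 times that of CTRL in JTE 1h (9.45 to 2199) and 24.2 times in KCl 1h (3.93 to 996), again with counting error only.

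A direct test of KCl 1h against JTE 1h, with no CTRL library in it, called 34 of the 279 members with a CTRL mean of at least 0.3 CPM higher and 40 lower, where 10.7% and 5.24% of all genes were. Over all 367 the counts were 82 and 43, and those added are of members whose treated libraries brought them in, so the excess of higher calls is not a result. Against IM 1h in place of CTRL, JTE 1h was higher in 129 of the 279 and lower in 0 (7.42% and 0.584% of all genes), with a median of 0.87, and over all 367 in 180 and 0. The 9 members that fell after KCl 1h included C20orf204 (−0.93) and LINC01391 (−0.69), a lncRNA 204 bases behind FOXL2 that rose by 0.78 after JTE 1h (edgeR adjusted p = 0.003964).

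Imatinib was compared at 1 and 18 hours. After IM 1h no member was called in nuclear RNA by edgeR or by DESeq2, 22 of 367 had an unadjusted p under 0.05, and 0.00456% of all genes rose and 0.041% fell. The median log2 fold change of members was −0.06. In a fit blocked on replicate number, 2 members were called. The ratio to the upstream gene likewise had 0 calls by limma, with 19 at an unadjusted p under 0.05, 0.0% and 0.0546% of pairs called, and 1 call with the block.

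After IM 18h, 68 of the 279 members with a CTRL mean of at least 0.3 CPM rose and 37 fell, against 17.2% and 15.4% of all genes, with a median of 0.11, and over all 367 the counts were 79 and 39. Here the upstream genes moved too: 29 of 373 rose and 94 fell. The ratio rose in 68 and fell in 14 of the 279 (29.1% and 9.55% of pairs). The largest rise was in ABTB1, an ankyrin and BTB domain gene that starts 126 bases behind PODXL2. It had 0.797, 0.853 and 0.253 CPM in CTRL and 9.58, 7.42 and 9.34 CPM in IM 18h, a log2 fold change of 3.68 ± 0.33 (edgeR adjusted p = 4.779e-08), while PODXL2 fell by 0.99 on the log2 scale (adjusted p = 1.546e-05).

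MYBPHL, a myosin-binding protein gene behind SORT1, had 0.221, 0.135 and 0.505 CPM in CTRL and 2.50, 2.54 and 2.78 CPM in IM 18h. It and the aldehyde oxidase gene AOX1 behind SGO2, with a log2 fold change of 2.95, had a CTRL mean under 0.3 CPM, as did LGR6, an R-spondin receptor gene that was also higher, and no test is given for them. BHLHA15, a transcription factor gene behind LMTK2, fell from 1.20, 1.03 and 1.36 CPM to 0.339, 0.149 and 0.371 CPM, by 2.11 on the log2 scale (edgeR adjusted p = 2.9e-05). Among the highest members, ADAM8 rose by 2.38 (edgeR adjusted p = 2.441e-09) and ING4 by 1.61 (adjusted p = 8.399e-08). CDK5R1 fell by 1.15, while PSMD11 fell by 0.77. The CTRL mean of CDK5R1 was above the upper limit of the rule, so its fall is a description and no test is given. HBB, 3283 bases behind its paralogue HBD and named after its values were seen, rose by 2.004 while HBD rose by 2.17, and reads of the globins can be shared.

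The mRNA libraries took no part in the choice of members and were asked whether these RNAs also reach the poly(A) fraction. The mRNA counts keep members that entered only through treated nuclear libraries of the same treatments. Such members were chosen for a rise in nuclear RNA, so a rise in mRNA is not independent of the choice. After JTE 1h, 19 of 280 members tested rose and 1 fell, against 0.387% and 0.464% of 18095 genes. These 20 calls were 2 with only the 2 groups fitted, 8 without CTRL replicate 2, and 10 without CTRL replicate 1 or JTE 1h replicate 3. After JTE 6h, 141 rose and 7 fell (6.73% and 6.47%), with a median log2 fold change of 1.49, and after JTE 18h 41 rose and 1 fell (3.29% and 2.09%), with 0.49. The 42 calls at 18 hours were 24 without JTE 18h replicate 1 and 26 without CTRL replicate 2 or JTE 18h replicate 3. JTE 6h was above JTE 1h in 97 members and below in 5 (5.1% and 4.13% of all genes; 66 members differed without JTE 6h replicate 3, against 102), and JTE 18h was below JTE 6h in 105 and above in 14 (5.68% and 7.76%). At JTE 6h, far genes had a median of 0.13 (77 of 429 rose), and 4 of 373 upstream genes rose and 32 fell.

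**Figure D4:**
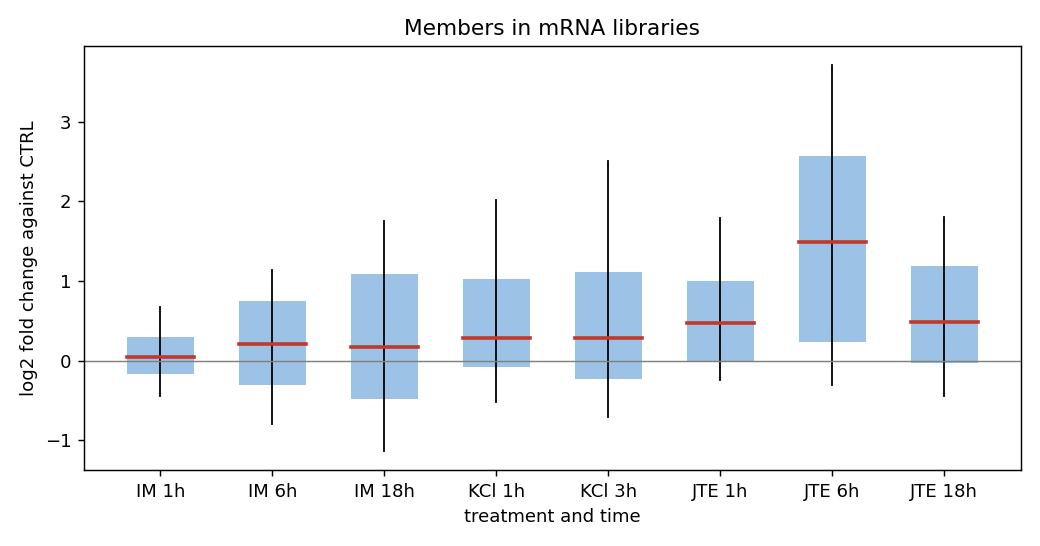
Log2 fold change against CTRL of 280 members in mRNA libraries by treatment and time, with the median as a red line, the box from the lower to the upper quartile and the line from the 10th to the 90th percentile. JTE 6h has the highest median, 1.49, and JTE 1h and 18h have 0.47 and 0.49.

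Of 292 members tested in both fractions (mitochondrial tRNA genes included), 141 were called higher in nuclear JTE 1h and 141 in mRNA JTE 6h, and 110 were in both, which is 78.0% of each. All 19 members called higher in mRNA JTE 1h were among the nuclear 141. The 2 fractions come from separate libraries, and the log2 fold changes had a Spearman's rho of 0.74 across these members, given as a description. The nuclear calls include members with a CTRL mean under 0.3 CPM, whose rise in some treated group is fixed by the rule. No overlap over all genes was computed, so the shares in both fractions are a description too. In IM 18h, 52 members were called higher in both, 72.2% of the 72 in nuclear RNA and 73.2% of the 71 in mRNA.

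RNF225 had mRNA levels of 0, 0 and 0.056 CPM in CTRL, 0.312, 0.591 and 2.24 CPM in JTE 1h, 0.707, 1.5 and 4.49 CPM in JTE 6h, and 0.542, 0.365 and 0.276 CPM in JTE 18h. With 1 CTRL count, its ratio at JTE 6h was 133 (exact 95% interval 23.4 to 5275, for counting error only). ESPNL, an espin-like gene of the actin cytoskeleton 744 bases behind SCLY, had 0 CPM in CTRL and 0.530, 0.857 and 4.54 CPM in JTE 6h, at least 12.1-fold higher. IQCA1L likewise had 0 CPM in CTRL and 0.589, 0.964 and 3.62 CPM in JTE 6h, at least 10.6-fold. JTE 6h replicate 3 was the highest library in each, with a summed level over the members of 1096 CPM against 766 and 751. Replicate 3 had the highest such sum in 7 of 9 mRNA groups, CTRL among them, and in 3 of 5 nuclear groups, and its part in these values was not tested.

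VWA7 rose by 2.701 ± 0.28 on the log2 scale in mRNA JTE 6h (edgeR adjusted p = 1.756e-07), and RSPH6A by 5.38 ± 0.84 (adjusted p = 7.212e-05). For KCl, 33 members rose and 1 fell at 1 hour (2.51% and 2.94% of all genes), and 50 rose and 13 fell at 3 hours (4.55% and 7.33%). The 34 calls at 1 hour were 20 without CTRL replicate 1 or 2, 16 with only the 2 groups fitted, and 20 among members with a nuclear CTRL mean of at least 0.3 CPM. The 3-hour libraries were above the 1-hour ones in 12 members and below in 6 (1.37% and 1.92%), 18 calls that were 8 without KCl 1h replicate 2, 12 without KCl 3h replicate 3 and 9 with only the 2 groups fitted. GRAMD2A had 0.864, 1.02 and 2.12 CPM in KCl 3h, and 0.0589, 0.0536 and 0 CPM in JTE 6h. With 1 CTRL count, its KCl 3h ratio was 73.0 (exact 95% interval 12.7 to 2916, for counting error only). The pseudogene PKMP3, 344 bases behind SNHG5, had 0 CPM in every mRNA CTRL library and 1.78, 2.58 and 2.67 CPM in KCl 3h, at least 14.35-fold higher, again with reads that copies can share. ZBTB6, 1 of the 5 highest members, fell from 16.9, 13.8 and 16.5 CPM to 3.17, 3.78 and 3.95 CPM in mRNA KCl 3h, by 2.07 on the log2 scale (edgeR adjusted p = 9.411e-09), and its nuclear log2 fold change for KCl 1h was −0.11.

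In mRNA after imatinib, no member was called at 1 hour by edgeR or DESeq2 (8 at an unadjusted p under 0.05, 0.0% and 0.0166% of all genes), 26 rose and 3 fell at 6 hours (5.82% and 4.12%; the 29 calls were 16 without IM 6h replicate 3, 17 without CTRL replicate 3 or with only the 2 groups fitted, and 19 without IM 6h replicate 2), and 71 rose and 18 fell at 18 hours (17.2% and 13.2%). ABTB1 had 0.0546, 0.315 and 0.224 CPM in CTRL and 3.40, 3.37 and 1.81 CPM in IM 18h, a log2 fold change of 3.78 ± 0.44 (edgeR adjusted p = 4.169e-07).

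The response in nuclear RNA was set against that in mRNA by an interaction term in edgeR. For JTE 1h no member differed, with 47 at an unadjusted p under 0.05, 2 by DESeq2, and 0.0555% and 0.00504% of all genes higher and lower in nuclear RNA. For IM 1h none differed by edgeR or DESeq2 (13 at an unadjusted p under 0.05, 0.0% of all genes), and for IM 18h 1 did (0.0551% and 0.0351%), a call lost without any 1 library other than mRNA CTRL replicate 2 or nuclear IM 18h replicate 3. For KCl 1h, 3 members with a CTRL mean of at least 0.3 CPM responded more in nuclear RNA (0.588% and 0.0806% of all genes): PYGM, the muscle glycogen phosphorylase gene (1.70), ADCY10P1 (2.05) and 1 without a symbol. Over all 351 members tested 6 were called, and FAM177B (3.315), LINC00562 (3.625) and RPL7P19 could have entered only through treated libraries. The 6 were 17 with DESeq2, 16 with no filter on low counts and 2 to 7 with 1 library left out, 2 of them without any 1 nuclear CTRL library. RPL7P19 was at 0 CPM in nuclear CTRL and at 2.46, 3.31 and 3.42 CPM in mRNA CTRL.

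From a list of 27 genes of 3′ end cleavage, polyadenylation and termination, 26 were tested. After JTE 1h only PCF11, a termination factor, rose in nuclear RNA (log2 fold change 0.88, edgeR adjusted p = 3.942e-05), and none fell. After KCl 1h only PPP1R10, a phosphatase subunit of the termination machinery, rose (1.03, adjusted p = 5.932e-07). CPSF3, which encodes CPSF73, had 0.22 (adjusted p = 0.4718) and 0.09 (adjusted p = 0.7682). After IM 18h CSTF2 and CLP1 fell, and in mRNA JTE 6h RBBP6, CSTF3 and PCF11 rose while CPSF4 and TOX4 fell.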

How the data were processed

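Nuclear and mRNA libraries of K562 cells were analysed from 2 tables of gene counts. Per the labels and the study's methods, the authors trimmed and deduplicated reads, mapped them uniquely with STAR to hg38 (labels: GRCh38.p14) and deposited featureCounts counts over exons, with no strand option stated although libraries were stranded, so antisense reads cannot be told apart. The annotation release was not given in the sources used here. Counts without strand, and exons of genes whose reads match copies elsewhere, limit what a low count means.

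Members were found from gene spans in the table, and CPM was computed as count over library total. The members, the gene lists and the tests were chosen with earlier results of these data known. Counts were tested with edgeR 4.0.16 (TMM, filterByExpr, robust quasi-likelihood, 1 term per group over all libraries of a fraction), and R 4.3.3, and p-values were Benjamini-Hochberg adjusted over all genes. A gene was called at adjusted p under 0.05 and log2 fold change beyond 0.6. The ratio of member to upstream gene was tested with limma 3.58.1 on log2 CPM with a pseudocount of 0.5 and voom weights, and fractions by an edgeR interaction term. DESeq2 1.42.0 was an alternative, with other filters, members and replicates left out. Scripts were tested on simulated data. Python 3.11.15 was used for sequences.

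Named members were those with the largest called changes without overlap between groups and a mean of 1 CPM or more, the 5 closest and the 5 highest, the largest ratio changes, and the largest rises in mRNA at JTE 6h, KCl 3h and IM 18h; the 5 closest were mitochondrial tRNA genes, and those without a symbol are counted only. The pairs shown with their gap, and the genes named for the interaction and for KCl falls, were chosen after their values were seen. Treatments were repeated as separate biological experiments, and no source used here says that a number marks a shared one. Same-numbered deviations of treated and CTRL libraries correlated at 0.234 to 0.891 in nuclear RNA and at −0.367 to 0.877 in mRNA. The main fits of both fractions did not pair replicates, and a block on replicate number was fitted only as an alternative. Between treated mRNA groups they correlated at 0.650 to 0.799 for JTE 6h and 1h, and at 0.583 to 0.671 for KCl 3h and 1h. The main nuclear counts, and the direct mRNA contrasts of these time points, therefore leave out a pairing that these correlations show. A count of 0 used a floor of 3 counts per library. The upstream genes of some members are not reported here.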

Additional observations from a re-analysis of the deposited data

Results flagged for a closer look

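The following differences between groups passed their own test. The response to KCl 1h differed between nuclear RNA and mRNA in 6 of 351 members tested, where 0.588% and 0.0806% of all genes were higher and lower in nuclear RNA. With 1 library left out it differed in 2 to 7. Of the 6, 3 had a CTRL mean of at least 0.3 CPM. FAM177B, LINC00562 and RPL7P19 could have entered only through treated nuclear libraries, so the choice favours a larger nuclear response in them and they are a description. The response to IM 18h differed in 1 of 261, MT-TM (edgeR interaction, adjusted p = 0.0443), against 0.0551% and 0.0351% of all genes. This call was lost without any 1 library other than mRNA CTRL replicate 2 or nuclear IM 18h replicate 3. In mRNA, 102 of 280 nuclear-genome members differed between JTE 6h and JTE 1h, 119 between JTE 18h and JTE 6h, and 18 between KCl 3h and KCl 1h (edgeR, direct contrasts added after the counts against CTRL were seen). Over all genes, 5.1% were higher and 4.13% lower in the first contrast, 7.76% and 5.68% in the next, and 1.37% and 1.92% in the last. The 102 were 66 without JTE 6h replicate 3, and the 18 were 8 without KCl 1h replicate 2 and 12 without KCl 3h replicate 3.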

How the results depend on the processing

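Counts are of members called in either direction, mitochondrial tRNA genes included. With 182 members within 2000 bases in place of all, calls were 82 of 182 for nuclear JTE 1h, 91 for KCl 1h, 57 for IM 18h, 52 for KCl 1h against JTE 1h and 85 for JTE 1h against IM 1h, in mRNA 77 for JTE 6h, 22 for JTE 18h, 16 for KCl 1h, 25 for KCl 3h, 14 for IM 6h, 40 for IM 18h, 52 for JTE 6h against 1h, 61 for JTE 18h against 6h and 7 for KCl 3h against 1h, and 1 for the KCl interaction, since fewer members were counted. Members chosen on the CTRL mean alone gave 129 for nuclear KCl 1h, 74 for KCl 1h against JTE 1h, 19 for mRNA KCl 1h, 139 for the KCl ratio and 3 for the KCl interaction, and members with a CTRL mean of at least 0.3 CPM (chosen after seeing the data) 130, 74, 20, 141 and 3. With only the 2 groups compared, mRNA calls were 2 for JTE 1h, 16 for KCl 1h, 17 for IM 6h, 55 for JTE 6h against 1h and 9 for KCl 3h against 1h. A mean count of 50 or more left 58, 53 and 56 ratio calls for JTE 1h, KCl 1h and IM 18h. For the interaction, DESeq2 called 2 (JTE 1h) and 17 (KCl 1h), no low-count filter 5 and 16, and leaving out mitochondrial tRNA genes 0 for IM 18h. Ratio calls for IM 1h were 1 without weights. The replicate block gave 2 for nuclear IM 1h and 1 for the IM 1h ratio, and changed no other nuclear count by more than 1.5 times. In mRNA, same-numbered deviations correlated with CTRL at −0.367 to 0.877, negatively in 15 of 24 libraries, and 6 of 24 followed the CTRL library of their own number best. Replicate 3 was negative in 0 of 8 libraries and gave those 6. Between treated mRNA groups the same numbers did go together, at 0.650 to 0.799 for JTE 6h and 1h and 0.583 to 0.671 for KCl 3h and 1h. In mRNA the replicate block gave 53 for IM 6h, and 1 and 10 for the JTE and KCl interactions. The cause of these shifts was not tested unless given.

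Leaving out 1 replicate at a time gave 137 to 170 calls for nuclear JTE 1h, 176 to 213 for KCl 1h, 0 for IM 1h, 100 to 122 for IM 18h, 103 to 115 for KCl 1h against JTE 1h and 146 to 167 for JTE 1h against IM 1h. In mRNA it gave 8 to 22 for JTE 1h (8 without CTRL replicate 2, 10 without CTRL replicate 1 or JTE 1h replicate 3), 121 to 155 for JTE 6h, 24 to 33 for JTE 18h (24 without JTE 18h replicate 1, 26 without CTRL replicate 2 or JTE 18h replicate 3), 20 to 34 for KCl 1h (20 without CTRL replicate 1 or 2), 51 to 59 for KCl 3h, 0 for IM 1h, 16 to 23 for IM 6h (16 without IM 6h replicate 3, 17 without CTRL replicate 3, 19 without IM 6h replicate 2) and 66 to 78 for IM 18h. It gave 66 to 103 for JTE 6h against 1h (66 without JTE 6h replicate 3), 85 to 123 for JTE 18h against 6h, and 8 to 17 for KCl 3h against 1h (8 without KCl 1h replicate 2). Ratio calls were 167 to 200 for JTE 1h, 196 to 227 for KCl 1h, 0 for IM 1h and 86 to 100 for IM 18h. Interaction calls were 0 to 1 for JTE 1h (1 without mRNA CTRL replicate 2 or JTE 1h replicate 3), 2 to 7 for KCl 1h (at most 3 without any nuclear CTRL replicate, nuclear KCl 1h replicate 2 or 3, mRNA CTRL replicate 3 or mRNA KCl 1h replicate 1 or 2), and 0 to 1 for IM 18h (0 without any 1 library other than mRNA CTRL replicate 2 or nuclear IM 18h replicate 3). Named members with a log2 fold change close to 0 changed sign, none of them called. ADAM8, nuclear KCl 1h against CTRL, was 0.007181 with DESeq2, 0.007055 with RLE scaling, 0.007518 with the replicate block and −0.1054 to 0.1473 without 1 replicate. Without 1 replicate, ING4, nuclear KCl 1h against CTRL, ran from −0.1991 to 0.007088, ZBTB6, nuclear JTE 1h against CTRL, from −0.1686 to 0.02524, ZBTB6, nuclear KCl 1h against CTRL, from −0.2236 to 0.004263, MT-TL1, nuclear JTE 1h against CTRL, from −0.1524 to 0.1461, MT-TV, nuclear KCl 1h against CTRL, from −0.565 to 0.3015, MT-TR, nuclear JTE 1h against CTRL, from −1.278 to 0.06161 and MT-TR, nuclear KCl 1h against CTRL, from −1.108 to 0.3419. At library totals of 16175394 to 25103205 counts, members under 0.3 CPM rest on few counts, and a fold change against them is set by those few.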
